A study of Mus musculus with 4 samples.

Results

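The genes described here handle zinc: the importers Slc39a1, Slc39a6, Slc39a7, Slc39a10 and Slc39a14, the transporters Slc30a1 and Slc30a5, which move zinc out of the cytosol, the metallothionein genes Mt1 and Mt2, and the metal-sensing transcription factor gene Mtf1. These 10 symbols were found among the 23284 of each library, and all 10 had a mean of at least 1 FPKM, the minimum that 9380 genes met. The genes were picked with the galectin-1 comparison of these same libraries known, so their differences in it are given as a description and no p-value is printed for them. The cells were macrophages that had been grown in culture from the bone marrow of wild-type mice, a widely used stand-in for macrophages of tissues. Every culture received lipopolysaccharide (LPS), a bacterial cell wall component, at 1 µg/ml for 1 h. It was then kept for 24 h with phosphate-buffered saline, the vehicle, or with galectin-1, a lectin that binds galactose-containing glycans, given as the recombinant mouse protein. Its dose is not stated in the labels. Each group had 2 libraries, and no library came from cells without LPS. The labels also leave out the strain and age of the mice and whether replicates stem from different animals or culture wells, so p-values here reflect the spread between these libraries, which may be technical.

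Cells hold most of their zinc bound to protein and move the rest across membranes with 2 transporter families. Products of the Slc39 genes, the ZIP proteins, bring zinc into the cytosol from outside or from organelles, and products of the Slc30 genes, the ZnT proteins, carry it out of the cytosol. Metallothioneins are small cysteine-rich proteins that bind zinc and copper. The factor encoded by Mtf1 binds free zinc, enters the nucleus and activates the metallothionein genes and Slc30a1 through short metal response elements, and Slc39a10 is known as a gene that it represses. In macrophages, inflammatory stimuli such as LPS are known to alter zinc uptake, export and metallothionein transcription.

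The core of the metal response element can be read in the promoter windows of 4 of these genes. The element was searched on both strands as TGCACNC and TGCGCNC, which share no match, in RefSeq windows of 300 bases on GRCm38.p6, 250 before and 50 after each annotated start. Of 32851 such windows 25.7% held at least 1 match, 7.11% at least 2, 1.97% at least 3 and 0.517% at least 4. Among the 8725 windows of tested genes the shares were higher, at 35.4%, 11%, 3.16% and 0.779%. Mt2 had 4 matches and Mt1 had 3, all of those of Mt1 on the strand of the gene. Slc30a1 had 2 and Slc30a5 had 1, all on the opposite strand. The windows of Slc39a1, Slc39a7 and Mtf1 and both windows of Slc39a10 had 0, which says only that these letters are not in those windows. Windows were found for 8 of the 10 genes, Slc39a6 and Slc39a14 being the others. The matches that begin before the RefSeq start are shown because they let the metallothionein and transporter genes be compared by letter. Left out are those beginning at +2 and +20 for Mt1, at +4 for Mt2 and at +30 for Slc30a1. Capitals mark the match, 10 bases flank it on each side, and each is written in the direction in which the element reads.
Mt1, chr8:94179056-94179082, plus strand, match beginning at -23: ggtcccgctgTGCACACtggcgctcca
Mt2, chr8:94172385-94172411, plus strand, match beginning at -223: gcatcgcctcTGCACCCggcccctcgg
Mt2, chr8:94172480-94172506, plus strand, match beginning at -128: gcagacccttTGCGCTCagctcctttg
Mt2, chr8:94172558-94172584, minus strand, match beginning at -50: ggacagagccTGCACACgccctccccc
Slc30a1, chr1:191906728-191906754, minus strand, match beginning at -43: aactttgcttTGCACTCggaacccccg
Slc30a5, chr13:100833459-100833485, plus strand, match beginning at -48: atcctgcgccTGCGCGCtggtggacac
Positions are those of the match's upstream end relative to the RefSeq start, taken as base 0. The GENCODE vM21 annotation of the same build lists further starts of Mt1 at 94179211 and 94179241 and of Mt2 at 94172860, downstream of these windows. It also starts Slc39a10 at 46854046 and a transcript of Mtf1 at 124802104, both upstream of a window. The bases immediately before any of those starts were not searched, for Slc39a10 and Mtf1 as for the metallothioneins. The Mt1 and Mt2 windows do lie farther upstream of those metallothionein starts, with all the matches of these genes. A match is a string of letters and was not measured as a binding site.

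The 10 genes spanned a wide range of levels. In FPKM, fragments scaled to transcript length and library size, Mt2 was the highest with a mean of 669 over the 4 libraries, and 98.4% of tested genes lay lower. Mt1 followed with 419 FPKM and Slc39a1 with 136 FPKM, and then Slc39a7, Slc39a14 and Slc39a6 with means from 37.4 down to 12.2 FPKM. Mtf1 was the lowest at 3.97 FPKM. The place of Slc39a10 in that order differed between the groups. With vehicle it lay between Slc30a1 and Mtf1, and with galectin-1 between Slc39a6 and Slc30a5. The ranges of neighbours in the order did not overlap in either group. The plot of the 10 genes by library shows this crossing.

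**Figure D1:**
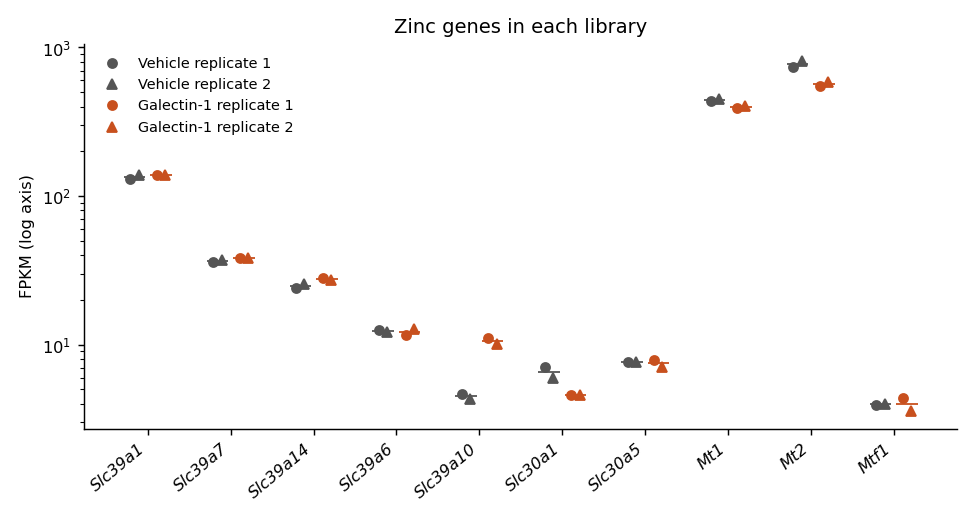
FPKM of the 10 zinc genes in each of the 4 libraries on a log axis; circles and triangles are replicates 1 and 2, grey is vehicle, orange is galectin-1 and bars are group means. Slc39a10 lies near 4.48 FPKM with vehicle and near 10.6 FPKM with galectin-1, while Slc30a1 and Mt2 lie lower with galectin-1 in both libraries.

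Slc39a10, a plasma membrane zinc importer, had the largest difference of the 10 genes. Its level was 4.64 and 4.32 FPKM in vehicle replicates 1 and 2, and 11.1 and 10.1 FPKM in galectin-1 replicates 1 and 2. Both galectin-1 libraries lay above both vehicle libraries, and the gap between the groups was much wider than that between replicates. The means were 4.48 ± 0.226 and 10.6 ± 0.655 FPKM (SD, n = 2 per group), a ratio of 2.37. On the scale of log2(FPKM + 1) the difference was 1.08 with a standard error of 0.07. That difference ranked 22 among 9380 from the top. Above it, apart from entries with a Gm, LOC, Rik, Mir or Snor symbol, stood Ndufs5, Pira7 and Amd2, which are named here after their values were seen. Of these Ndufs5 was called in limma, and it had at most 0.0208 FPKM with vehicle against 9.31 and 18.9 FPKM with galectin-1. The gene lies on the minus strand of chromosome 1 at 46807544 to 46892852 (GENCODE vM21).

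Slc30a1, the zinc exporter of the plasma membrane, went the other way. It had 7.11 and 6.00 FPKM with vehicle and 4.60 and 4.61 FPKM with galectin-1. The groups did not overlap, and the vehicle libraries differed from each other by more than the galectin-1 libraries did. The means were 6.56 ± 0.789 and 4.61 ± 0.00872 FPKM (SD, n = 2 per group), a ratio of 0.703, and the log2 difference was -0.43 with a standard error of 0.09. The gene lies on the plus strand of the same chromosome at 191906767 to 191913247.

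The metallothionein genes were both lower with galectin-1, by different amounts. Mt2 had 737 and 805 FPKM with vehicle and 547 and 587 FPKM with galectin-1. The groups did not overlap, and the means of 771 ± 48.6 and 567 ± 28.3 FPKM (SD, n = 2 per group) differed by -0.44 on the log2 scale, with a standard error of 0.05. Mt1 had 434 and 447 FPKM with vehicle and 390 and 404 FPKM with galectin-1. Its groups did not overlap either, but the distance was smaller, from 441 ± 9.36 to 397 ± 10.4 FPKM, a log2 difference of -0.15 with a standard error of 0.03. Summed, the pair came to 1171 and 1253 FPKM with vehicle and 936 and 991 FPKM with galectin-1. Mt2 at 94172664 to 94173568 and Mt1 at 94179082 to 94180327 lie on the plus strand of chromosome 8 with 5513 bases between them. Their annotated transcripts are short, 388 to 511 bases for Mt2 and 549 to 1085 for Mt1. How the authors assigned reads between these related genes, and the length they divided by, is not stated in the labels.

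Slc39a14, an importer of zinc and of iron that is known as an acute-phase gene, was slightly higher. It had 24.2 and 25.4 FPKM with vehicle and 27.9 and 27.4 FPKM with galectin-1. The groups did not overlap, and the log2 difference was 0.15 with a standard error of 0.05. Slc39a7, which releases zinc from the endoplasmic reticulum and Golgi, had 36.2 and 37.0 FPKM with vehicle and 38.4 and 38.0 FPKM with galectin-1. Its groups were separated by a narrow margin, with a log2 difference of 0.06 and a standard error of 0.04.

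The other 4 genes overlapped between the groups. Slc39a1, a broadly expressed importer, had 129.6 and 138.5 FPKM with vehicle and 138.1 and 139.2 FPKM with galectin-1, so that vehicle replicate 1 was the low library. It supplied 51.3% to 53.1% of the summed FPKM of the 14 Slc39 genes in each library, and Slc39a10 supplied 1.88% and 1.66% with vehicle and 4.12% and 3.75% with galectin-1. Slc39a6, the importer most like Slc39a10 within the family, had 12.5 and 12.3 FPKM with vehicle and 11.6 and 12.7 FPKM with galectin-1. It showed no separation of the groups, with a log2 difference of -0.03 and a standard error of 0.06. Slc30a5, which loads zinc into the early secretory pathway, had 7.67 and 7.59 FPKM with vehicle and 7.85 and 7.10 FPKM with galectin-1. Mtf1 had 3.95 and 4.02 FPKM with vehicle and 4.35 and 3.58 FPKM with galectin-1. The galectin-1 libraries thus lay on either side of vehicle for Mtf1 (log2 difference -0.01, standard error 0.10) and for Slc30a5 (-0.03, standard error 0.07).

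Of the 10 genes, 3 were higher without overlap, 3 were lower without overlap and 4 overlapped. Over all tested genes 55.4% did not overlap, 29.1% being higher and 26.2% lower. In the limma fit across all tested genes with a Benjamini-Hochberg adjusted p under 0.05, 1.19% of genes were called, 0.608% higher and 0.586% lower. Slc39a10 was among the 57 called higher and Mt2 among the 55 called lower. Because the genes were picked with this comparison known, nothing is read from these counts. Neither Slc39a10 nor Mt2 was called when any 1 of the 4 libraries was left out, with no filter on low values or in limma without a variance trend. The log2 difference without 1 library ranged from 1.02 to 1.14 for Slc39a10 and from -0.51 to -0.38 for Mt2. The plot of all tested genes places the 10 genes against the rest.

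**Figure D2:**
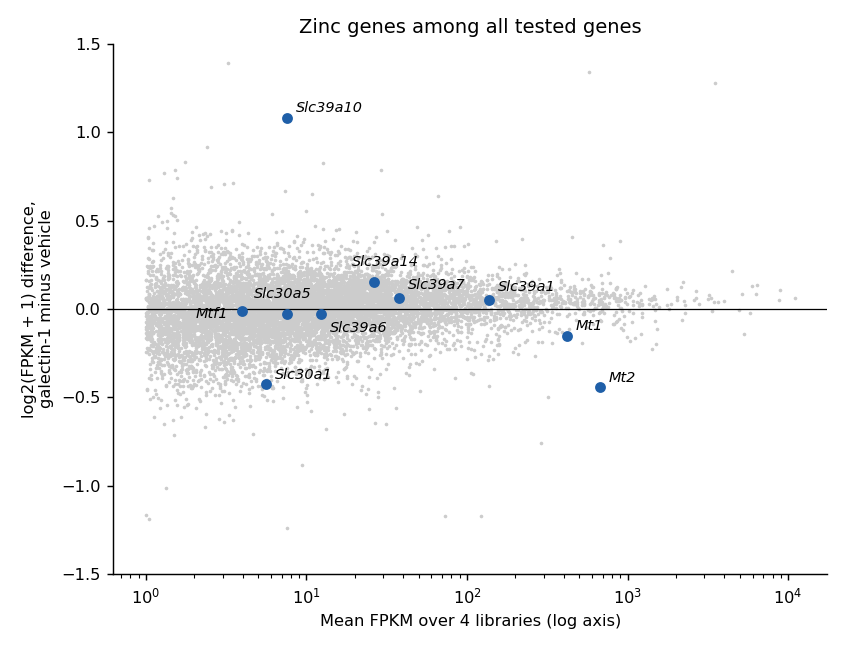
Difference of mean log2(FPKM + 1), galectin-1 minus vehicle, against the mean FPKM of the 4 libraries on a log axis for all 9380 tested genes (grey), with the 10 zinc genes in blue; 33 genes beyond 1.5 in either direction lie outside the axis. Slc39a10 (1.08) lies above the bulk of genes of its level, Mt2 (-0.44) below, and Mtf1, Slc30a5 and Slc39a6 lie close to 0.

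The rest of the zinc pathway was read from lists of both transporter families, the metallothioneins and other zinc-binding or zinc-sensing proteins. Of 25 further listed genes 13 reached the expression minimum, and in limma 0 rose and 0 fell, where 1.19% of all tested genes were called. In so few genes, 0 calls cannot be told from that share. At an unadjusted p under 0.05 there were 1 higher and 1 lower, 2 of 13, where 23.2% of all tested genes had such a p. Limma without the trend called 0. Their median log2 difference was -0.02, against 0.00 over all tested genes, with 5 positive and 8 negative. Slc39a8, an importer induced by inflammatory signalling, had 4.96 and 5.21 FPKM with vehicle and 6.35 and 6.13 FPKM with galectin-1. Its log2 difference was 0.25 with a standard error of 0.07 and a limma adjusted p of 0.121 (0.110 to 0.318 over the alternative settings). Slc30a6, the partner of the Slc30a5 product in the secretory pathway, had 8.60 and 7.62 FPKM with vehicle and 7.10 and 6.26 FPKM with galectin-1. Its log2 difference was -0.25 with a standard error of 0.09 and a limma adjusted p of 0.179 (0.112 to 0.465).

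Further members of both transporter families lay nearer to 0. Slc39a11 averaged 11.1 FPKM with vehicle and 10.5 FPKM with galectin-1 (log2 difference -0.07), Slc39a13 had 9.66 and 10.7 FPKM (0.14) and Slc39a9 had 6.92 and 7.06 FPKM (0.02). Among exporters, Slc30a4, a transporter of endosomes and vesicles, had 21.2 and 20.4 FPKM (-0.06). Slc30a9 had 8.18 and 8.08 FPKM (-0.02) and Slc30a7, a Golgi transporter, had 7.58 and 8.37 FPKM (0.13). Limma adjusted p for these 6 genes ranged from 0.286 for Slc30a7 to 0.903 for Slc30a9. Slc30a2, Slc30a3, Slc30a8, Slc30a10, Mt3 and Mt4 were listed at 0 in every library. Trpm7, a channel that passes zinc and magnesium, had 13.5 and 13.4 FPKM, and Cbwd1, encoding a zinc chaperone, had 4.52 and 4.48 FPKM. The calprotectin genes were near the floor: S100a8 had 2.73 and 0.806 FPKM with vehicle and 2.28 and 1.34 FPKM with galectin-1. S100a9 was listed at 0 in 3 of 4 libraries and at 0.530 FPKM in vehicle replicate 2.

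**Figure D3:**
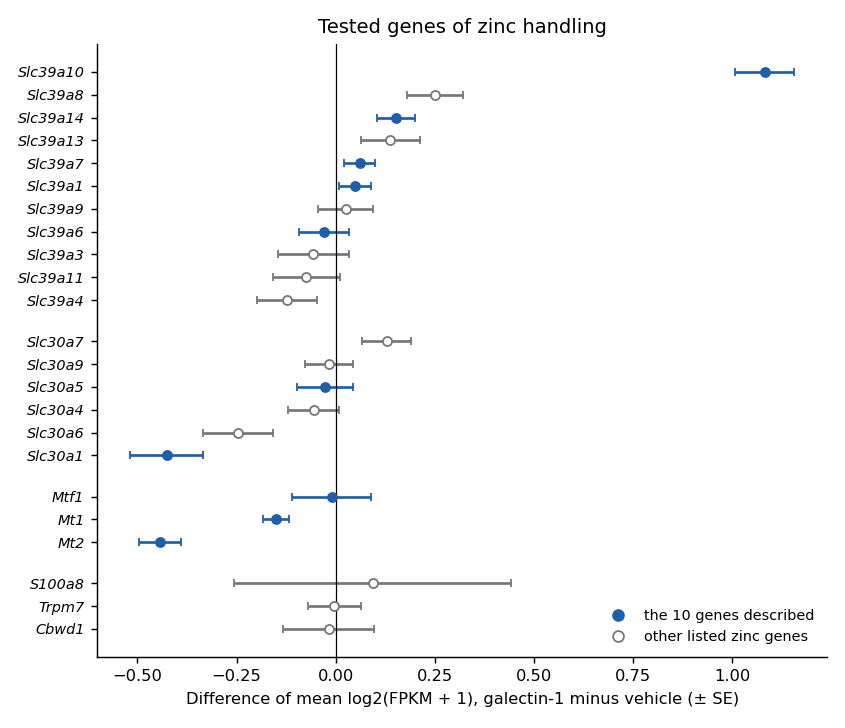
Difference of mean log2(FPKM + 1), galectin-1 minus vehicle, with its standard error, for the tested genes of zinc handling grouped by family; filled blue points are the 10 genes described and open points the 13 other listed genes. Slc39a10 stands at 1.08, Slc30a1 and Mt2 at -0.43 and -0.44, and the open points lie between -0.25 and 0.25.

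Genes of other metals and of metal stress were listed for comparison. Of 13 tested genes of copper and manganese handling, Slc31a2, encoding a low-affinity copper transporter of endosomes and lysosomes, fell, and 12 did not pass. Among all tested genes 1.19% were called. At an unadjusted p under 0.05 there were 4 higher and 2 lower, against 23.2% of all tested genes, and the groups of 8 of the 13 did not overlap, against 55.4%. Slc31a2 had 133 and 135 FPKM with vehicle and 113 and 111 FPKM with galectin-1, so the groups did not overlap (log2 difference -0.26, standard error 0.03, limma adjusted p = 0.0413). That call was lost when any 1 library was left out (limma adjusted p from 0.172 to 0.221), with no filter on low values (0.130) and in limma without the trend (0.138). Slc11a2, a divalent metal importer of iron and manganese, had 72.9 and 76.0 FPKM with vehicle and 88.9 and 85.5 FPKM with galectin-1 (0.22, limma adjusted p = 0.0614, and 0.0490 when only genes averaging 5 FPKM or more were fitted). Atox1, a copper chaperone, had means of 319 and 345 FPKM (0.12) and Cox17, a copper chaperone of mitochondria, 150 and 124 FPKM (-0.27), with limma adjusted p of 0.135 and 0.106. For Cox17 the limma adjusted p was 0.0466 with a replicate block and 0.113 to 0.299 without 1 library, where its difference ranged from -0.37 to -0.17, the smallest without vehicle replicate 1. The median of the copper and manganese list was -0.01.

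Of 11 tested genes induced by metals or oxidative stress, 0 rose and 0 fell in limma, against 1.19% called among all tested genes. In so few genes, 0 calls cannot be told from that share. An unadjusted p under 0.05 was found for 0, against 23.2% of all tested genes. That 0 hangs on the cut, since Txnrd1 had an unadjusted limma p of 0.0502. The groups of 4 of the 11 did not overlap, all higher with galectin-1, against 55.4% of all tested genes in either direction. In limma without the trend 0 were called. Hmox1, encoding heme oxygenase 1, had means of 83.5 and 90.0 FPKM, and Txnrd1, encoding thioredoxin reductase 1, had 78.4 and 84.6 FPKM, each with a log2 difference of 0.11. Without 1 library that of Hmox1 ranged from 0.048 to 0.17 and that of Txnrd1 from 0.061 to 0.15. Srxn1, encoding sulfiredoxin, had 35.0 and 34.2 FPKM and Gclm, a subunit of the glutathione synthesis enzyme, 10.3 and 9.84 FPKM. The median of this list was 0.09, with 8 of 11 differences positive.

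The 5 genes whose profile over the 4 libraries was nearest to that of Slc39a10 were Slc38a2, Nradd, Gdf15, Pgf and Dear1. Likeness was the root mean square difference of log2(FPKM + 1) after each gene's own mean was removed, and it ran from 0.214 for Slc38a2 to 0.246 for Dear1. Slc38a2, a transporter of neutral amino acids, had 8.44 and 7.90 FPKM with vehicle and 14.1 and 12.8 FPKM with galectin-1. Gdf15, a secreted stress-induced cytokine, had 55.8 and 47.6 FPKM with vehicle and 82.6 and 79.4 FPKM with galectin-1. The differences of these genes, from 0.63 for Pgf to 0.77 for Dear1, were all smaller than that of Slc39a10 on the log2(FPKM + 1) scale. The order turned with a pseudocount of 0.1, where Nradd (1.37) and Dear1 (1.37) lay above Slc39a10 (1.22), and their FPKM ratios of 2.92 and 2.71 were also above its 2.37. Nradd, Pgf and Dear1 lay between 0.454 and 2.20 FPKM in every library. Genes chosen for likeness to Slc39a10 share its direction by construction, and 4 libraries leave many profiles close to one another.

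**Figure D4:**
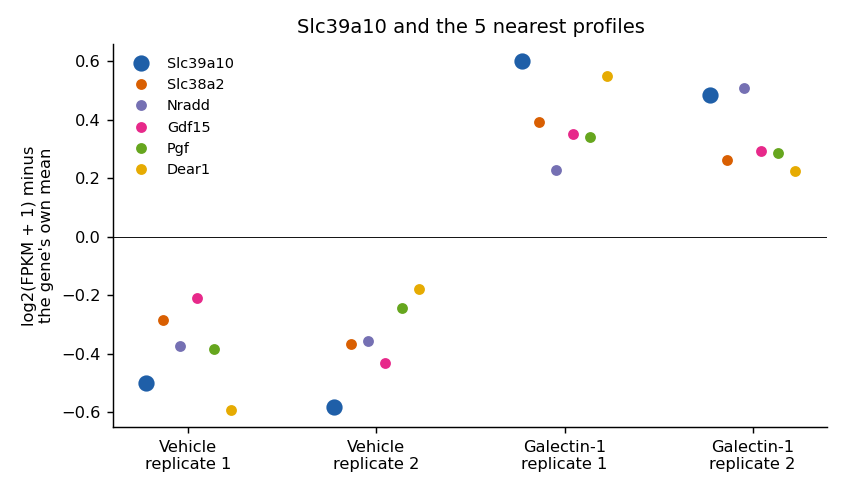
log2(FPKM + 1) minus each gene's own mean in the 4 libraries for Slc39a10 (large blue points) and the 5 genes of nearest profile among those compared. Points are offset sideways for legibility. All 6 genes lie below 0 in both vehicle libraries and above 0 in both galectin-1 libraries, and Slc39a10 has the largest difference of means on this scale, though not with a pseudocount of 0.1, where Nradd and Dear1 exceed it.

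The libraries were alike in total, with 541138 to 557661 FPKM and 13636 to 13785 symbols above 0. Relative to vehicle replicate 1, the steps of low values gave depths of 0.878 to 1.02, and the absolute depth is unknown. The 8 macrophage markers were present at a summed 9342 to 9346 FPKM with vehicle and 10120 to 10136 FPKM with galectin-1, so markers of the labelled cell type were abundant. Lyz2 made up most of these sums, with group means of 5701.5 and 6246 FPKM. Of the 8 genes 7 were higher with galectin-1, and Mertk was lower (means of 19.1 and 16.9 FPKM). Limma called 0 of them, and 6 had an unadjusted p under 0.05, against 23.2% of all tested genes. Neutrophil markers summed to at most 0.437 FPKM, with Elane, Ngp, Ltf and Retnlg at 0 in every library, and T, NK and B cell markers to at most 0.273 FPKM. The 7 dendritic cell markers summed to 22.6 to 22.7 FPKM with vehicle and 17.2 to 17.8 FPKM with galectin-1, and Fscn1, 1 of 3 tested, fell (limma adjusted p = 0.0425, and 0.138 without the trend). The lower sum came from Fscn1, Ccl22 and Ccr7, while Flt3, Zbtb46, Clec9a and Xcr1, all under 1 FPKM, had higher means with galectin-1. The 6 fibroblast markers summed to 14.1 to 14.2 FPKM with vehicle and 17.2 to 17.8 FPKM with galectin-1. Limma called 0 of the 4 tested with or without the trend (1 had an unadjusted p under 0.05). Among all tested genes 1.19% were called in limma with the trend. The macrophage, dendritic cell and fibroblast sums did not overlap between the groups. Of the zinc genes described, 6 did not overlap and 4 did, where 55.4% of all tested genes did not overlap. The part of these sums in the zinc gene values was not tested. In bulk RNA, fewer cells of a type and less RNA per cell cannot be told apart.

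Overlapping genes limit a few of these values, since the labels do not state whether the authors' counting used strand. In GENCODE vM21, Slc39a6 overlaps Elp2 on the opposite strand, with group means of 10.0 (vehicle) and 8.06 FPKM (galectin-1). Mtf1 overlaps 1110065P20Rik on the opposite strand, with 4.09 and 5.29 FPKM. Slc30a1 overlaps the antisense gene 1700034H15Rik, which lay at 0.121 FPKM or less in every library. Mt2 overlaps the antisense gene Gm45774, a symbol that the libraries do not list. Strand would not separate the overlaps on the same strand: Slc39a10 with Gm28151 and Gm37393, Slc39a7 with Gm20427 and Mtf1 with n-R5s192. The libraries list none of these overlapping symbols, so they have no values here.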

How the data were processed

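Poly(A) RNA of 4 libraries, 2 per group by their titles, was sequenced from a stranded mRNA kit, per the labels' protocols. The authors deposited FPKM, 1 value per symbol and library. Tools listed in the submitters' processing notes are Cufflinks 2.2.1, SAMtools 0.1.19, TopHat2 2.0.13 and Bowtie2 2.2.3, and the build listed is mm10; no role is recorded for any of them. Annotation, read filters and scaling across libraries are not stated there.

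Values were taken as log2(FPKM + 1), a scale that understates changes of low genes. Genes averaging 1 FPKM or more entered a fit in limma (version 3.58.1, under R 4.3.3) with a variance trend, 2 residual and 3.89 prior degrees of freedom, and 2-sided Benjamini-Hochberg adjustment over 9380 genes. Permuting 4 libraries gives 0.333 as the smallest 2-sided p, so no permutation test was run. Data of 9380 genes were simulated 20 times with normal noise of the fit's own variances, and 200 genes were changed each time. There the fit recovered 29.8% of the genes given a log2 change of 0.25, 79.9% at 0.5 and 99.8% at 1, and 7.26% of calls were false. These shares hold for noise that follows the fit's assumptions and need not hold for the libraries. Relative depth came from genes below 0.3 FPKM, as the most frequent ratio within 0.015 as a natural log.

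The members and lists were chosen with earlier results of these data known. Of 99 list symbols 98 were found, directly or by a RefSeq synonym. Named were all 10 members, listed genes past the threshold (up to 4 per list), the 4 highest others per list, and the 5 profiles nearest to Slc39a10. Members and Gm, LOC, Rik, Mir and Snor symbols were left out of the search for those profiles. Alternatives were another pseudocount (0.1), filter (none, or a mean of at least 5 FPKM), scaling (quantile, median) and variance model, a replicate block, and leaving out each library. Positions are from GENCODE vM21 and promoter windows from RefSeq, both on GRCm38, the assembly of mm10, searched with Python 3.11.15.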

Additional observations from a re-analysis of the deposited data

How the results depend on the processing

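With 2 libraries per group, counts of calls moved widely. The fits with fewer libraries or with more genes had fewer calls, and the cause was not tested for any setting. Against 57 higher and 55 lower, there were 1 and 2 with no filter on low values, 127 and 99 at a mean of at least 5 FPKM, 24 higher after quantile normalization, 1 and 1 in limma without the trend, and 4 to 9 higher and 3 to 12 lower without 1 library. Copper, manganese and stress genes called numbered 1, against 0 with no filter, without the trend and without any 1 library, and 2 at a mean of at least 5 FPKM. The other zinc genes called stayed at 0 in all 11 alternatives. With a replicate block, 123 genes were higher, 117 lower, and 2 copper, manganese and stress genes were called. The difference between replicates 1 and 2 correlated at 0.0114 between the groups over all tested genes. That value cannot tell whether same-numbered libraries share an animal or a batch, which the labels do not state.

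Slc39a10, Slc39a14, Slc39a1, Slc39a7, Slc30a1, Mt1 and Mt2 kept their direction in all 11 alternatives, but most of these could not have changed it. The filters, the variance model and the replicate block leave a gene's difference as it is. Where groups do not overlap, as for all of these genes but Slc39a1, leaving out 1 library or changing the pseudocount cannot turn the sign. For those genes only the quantile and median scaling could have done so. Slc39a10 ranged from 1.02 to 1.22, the latter with a pseudocount of 0.1, Slc30a1 from -0.53 to -0.32, Mt1 from -0.20 to -0.12 and Mt2 from -0.51 to -0.38 on the log2 scale. Slc39a10 and Mt2 were called in 5 of the 11. Differences near 0 changed sign, and the cause was not tested: after quantile normalization Mtf1 was 0.033 and Cbwd1 0.019, and scaled to the median Trpm7 was 0.00061. Without 1 library Slc39a6 ranged from -0.090 to 0.030, Slc30a5 from -0.091 to 0.036, Mtf1 from -0.12 to 0.10, Slc39a11 from -0.16 to 0.016, Slc39a9 from -0.021 to 0.071, Slc30a4 from -0.13 to 0.018 and Slc30a9 from -0.036 to 0.0043. Trpm7 ranged from -0.062 to 0.056, Cbwd1 from -0.16 to 0.13, S100a8 from -0.43 to 0.62, Srxn1 from -0.069 to 0.0027 and Gclm from -0.24 to 0.10.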

Other observations

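Ratios within each library, chosen after the values were seen, describe how the zinc genes stood to one another. The FPKM ratio of Slc39a10 to Slc30a1, importer to exporter, was 0.653 and 0.721 with vehicle and 2.41 and 2.20 with galectin-1. The exporter thus had the higher FPKM of the pair with vehicle and the lower with galectin-1. FPKM depends on the transcript lengths used, which the labels do not state, so which transcript was more abundant is not known. The FPKM ratio of Mt2 to Mt1 was 1.70 and 1.80 with vehicle and 1.40 and 1.45 with galectin-1. Both ratios rest on the same 4 libraries as the differences above and add no independent evidence.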
